A study of Mus musculus with 4 samples.

Results

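The genes described here are 9 genes of the node, the notochord and the left-right axis, namely Nodal, Lefty1, Lefty2, Chrd, Nog, Foxa2, Noto, Foxj1 and Car3. They were taken by gene name from the arrays, which held 27573 named genes in all, and 8 of the 9 had a probe. No probe was found under Noto, its older symbols or its RefSeq accession, and Noto was not analysed here. The study set posterior tissue of mouse embryos that were Cdx2+/- Cdx4-/- (heterozygous for one caudal homeobox gene and null for another) against the same tissue of wildtype embryos, both with 5 to 6 somites. Only tissue behind the youngest somite was taken, and for each RNA the tissue of 10 embryos of 1 genotype was pooled. Both RNAs were hybridised together, one in Cy3 and one in Cy5, to each of 4 Agilent arrays of 1 slide, labelled as replicates 1 and 2 with a dye swap each. No source used here gives the mouse strain or states whether replicates 1 and 2 were made from different pools. The p-values therefore reflect the scatter of these hybridisations, which may be technical.

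The node lies at the anterior end of the primitive streak and its midline descendants form the notochord. Motile cilia in the node drive a leftward fluid flow, Nodal is then expressed on the left side of the lateral plate, and the Lefty proteins hold its range in check. Chordin and noggin, secreted from the node and notochord, bind bone morphogenetic proteins (BMPs) and keep them from their receptors. Cdx genes are best known for extending the posterior body axis, and the study compared mutant and wildtype tissue at the site where that axis grows.

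The direction of the arrays is not settled by their labels. Arrays 1 and 2 carry the labels of replicate 1, and arrays 3 and 4 those of replicate 2, the dye swap being the even-numbered array in each case. The arrays labelled as dye swaps of each other correlated positively in Cy5 over Cy3 (r = 0.82 for arrays 1 and 2, and 0.87 for arrays 3 and 4, across 21800 probes, which are not independent replicates). Arrays labelled with the same dyes correlated at -0.43. The arrays were therefore turned so that Cdx4, a targeted gene, had a negative log2 ratio on each, and the RNA with less Cdx4 signal is called Cdx4-low and the other Cdx4-high. The Cdx4 ratios were -2.59, -2.11, -2.82 and -2.42 on arrays 1 to 4, which the turning itself set below 0. Cdx4-low RNA is the mutant and Cdx4-high RNA the wildtype by the labels of arrays 1 and 4, and the reverse by the labels of arrays 2 and 3, under which every sign below turns and higher and lower change places. All ratios are Cdx4-low over Cdx4-high, on the log2 scale, after an offset of 50 intensity units that pulls ratios of dim probes towards 0.

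Of the 6 members bright enough to test, Nodal and Car3 rose in Cdx4-low RNA, by about 1.25-fold and 1.30-fold, and none fell. Lefty2 and Foxa2 had positive ratios on every array without passing both tests, and the BMP antagonists Chrd and Nog lay near 0. The log2 ratios were fitted in limma with the labelled replicate as the unit (n = 2). Here a gene is said to have risen or fallen only if its adjusted p was below 0.05 in that fit and in a second one. The second, called the exchange pairing, pairs arrays 1 with 3 and 2 with 4, so that each pair holds Cdx4-low RNA in both dyes. Both fits share the mean ratio of a gene, and the SE is smaller in the exchange pairing (median 0.051 against 0.099). A gene called in the first fit therefore passes in the exchange pairing as well, which adds no independent support. In the first fit 2 of the 6 were called higher, against 3.29% of the 14842 genes tested, and 0 lower, against 4.44%, with 2 and 0 at an unadjusted p below 0.05. In the exchange pairing 3 were called higher, against 22.6% of genes, and 0 lower, against 19.6%. On all 4 arrays 4 of the 6 were above 0, against 24.9% of genes. The median log2 ratio of the 6 was 0.16, beside 0.015 over all genes tested. With the signs that the labels give, none of the 6 was called (0 also at an unadjusted p below 0.05 in limma), against 0.104% of the genes then tested. In place of loess, median centring left 6 genes higher and 2 lower, against 488 higher and 659 lower with loess, and ended the calls of the members and of every other gene named as risen or fallen below except Hbb-bh1. The signs of Nodal, Car3 and those other genes were kept, but Chrd turned to 0.014. Sizes moved (Nodal to 0.51 and Car3 to 0.57), and shifts by over 1.5 times in other genes are given beside them. The arrays then differed more, Nodal running from 0.05 to 1.05 and Car3 from 0.06 to 1.11. The median over all genes also moved up, to 0.28, and ratios under median centring here and below are to be read beside that shift. Testing all probes, dim ones included, called 0 members (adjusted p = 0.124 for Nodal and 0.109 for Car3). Because the tissue was bulk, fewer cells of a type and less RNA per cell cannot be told apart.

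Several markers of other tissues differed between the RNAs by more than the members did. The first fit called 3.29% of all genes higher and 4.44% lower. Of 4 tested primitive erythroid markers 3 rose in Cdx4-low RNA, among them the embryonic globin genes Hbb-bh1 (1.35) and Hba-x (1.12), and their summed normalised signal was 4762 to 7071 units in Cdx4-low RNA, against 2166 to 3184 units in Cdx4-high RNA. Of 8 endothelial markers 4 fell, including Kdr (-0.97) and Etv2 (-0.72). Pecam1 (-0.05), Tek (-0.05, other probe -0.32), Tie1 (-0.04) and Cdh5 (-0.23, other probe -0.05) were not called in the first fit. Endothelial sums were 6751 to 9559 units in Cdx4-low RNA and 10243 to 13788 units in Cdx4-high RNA. Of 3 tested neural plate markers Sox2 (0.52) and Nkx6-1 (0.50) rose and Sox1 was at 0.11, with sums of 1042 to 1844 units in Cdx4-low RNA and 713 to 1463 units in Cdx4-high RNA. With median centring, where the median over all genes was 0.28, Hbb-bh1 was at 1.77, Hba-x at 1.33, Kdr at -0.56 and Etv2 at -0.27. Sox2 was then at 0.75 and Nkx6-1 at 0.66. The call of Nkx6-1 ended without array 1 (limma adjusted p = 0.07). Of the trophoblast and decidua markers 2 of 4 were tested, and Prl8a2 fell (-1.41) and Prl3d1 rose (0.33, with 0.53 under median centring). The call of Prl3d1 ended without array 1, 2 or 3 (limma adjusted p = 0.0828 to 0.178). From the processed signals Hba-x was at 1.78, Nkx6-1 at 0.93, Prl8a2 at -2.29 and Prl3d1 at 0.51. The part of these tissues in the ratios of Nodal and Car3 was not tested. Of 7 tested markers of the posterior embryo itself, Wnt3a rose (0.34) and Cyp26a1 fell (-0.65). Under median centring they were at 0.79 and -0.21. The call of Wnt3a ended without any 1 array and with the processed signals (limma adjusted p = 0.0873). The summed signal of the 7 was 25796 to 32486 units in Cdx4-low RNA and 25522 to 32160 units in Cdx4-high RNA.

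**Figure D1:**
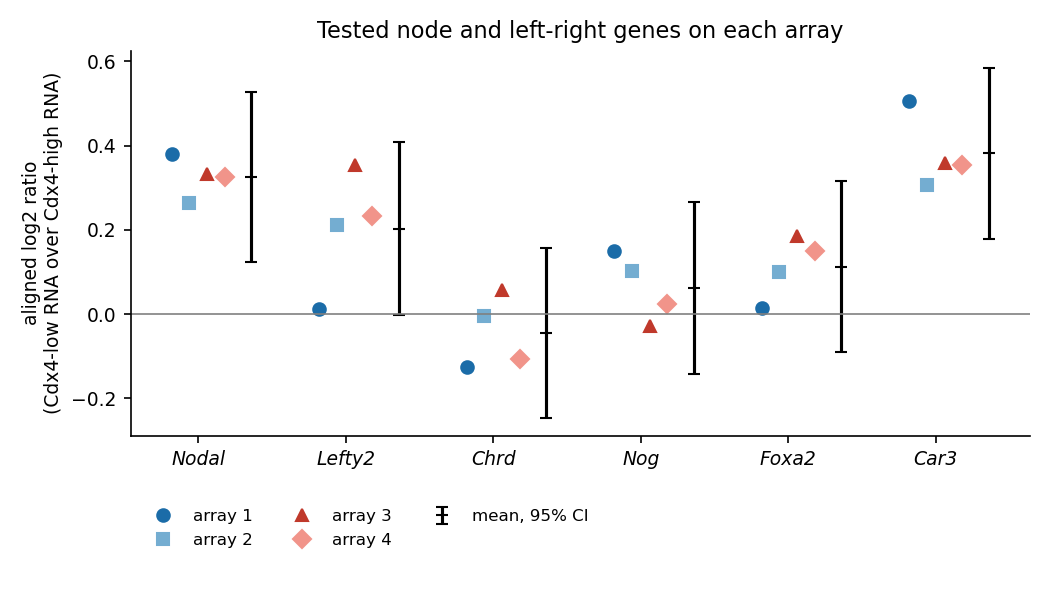
Aligned log2 ratio (Cdx4-low RNA over Cdx4-high RNA, vertical axis) of the 6 tested members on each of the 4 arrays (points), with the mean of the 2 replicates and its moderated 95% confidence interval (black). Nodal and Car3 lie above 0 on every array with intervals clear of 0, whereas the points of Chrd and Nog fall on both sides of 0. The signs turn with the labels of arrays 2 and 3.

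Nodal encodes the TGF-beta family ligand that patterns the left side of the body. Its probe (chromosome 10, 60820399 to 60820458, mm8) was well above background in both channels of every array. Before normalisation, its mean signal in Cdx4-low RNA was 474, 525, 300.0 and 326 intensity units on arrays 1 to 4, against 276, 283, 362 and 395 units in Cdx4-high RNA. The Cy5 channel, which held Cdx4-low RNA on arrays 1 and 2 and Cdx4-high RNA on arrays 3 and 4, was the brighter one each time, so the raw signals of the RNAs overlapped and the ratio rests on the dye normalisation. With median centring the log2 ratios were 0.34, 1.05, 0.05 and 0.62. After loess they were 0.38, 0.26, 0.33 and 0.33, all positive and within a narrow range. The mean was 0.33 ± 0.10 (moderated SE, n = 2, limma adjusted p = 0.0384, and adjusted p = 1.65e-09 in the exchange pairing). The call was marginal in the first fit, and it ended when any 1 array was left out (limma adjusted p = 0.193, 0.074, 0.0736 and 0.0832 without arrays 1 to 4), with the ratio between 0.30 and 0.36. From the scanner's processed signals, which carry no offset, the ratio was 0.53 (adjusted p = 0.0227).

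The sequence before the start of Nodal is shown beside that of Chrd, a member whose ratio lay near 0, since these are the called and uncalled members with a single window in the RefSeq-derived promoter table (GRCm38.p6). Capitals mark matches to any of 3 motifs looked for on both strands, AATCCACA (bound by Foxh1, the partner of the Smads below Nodal), TTTATG (Cdx factors) and GTGGGAA (Rbpj, the Notch effector that acts on a node enhancer of Nodal). The windows are the 250 bases up to the start, at chr10:61417722-61417971 (plus strand) for Nodal and chr16:20732877-20733126 (plus strand) for Chrd.
Nodal: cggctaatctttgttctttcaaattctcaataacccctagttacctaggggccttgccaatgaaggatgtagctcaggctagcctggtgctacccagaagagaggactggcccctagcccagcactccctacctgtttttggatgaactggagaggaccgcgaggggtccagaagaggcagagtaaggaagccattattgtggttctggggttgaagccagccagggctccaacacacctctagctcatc
Chrd: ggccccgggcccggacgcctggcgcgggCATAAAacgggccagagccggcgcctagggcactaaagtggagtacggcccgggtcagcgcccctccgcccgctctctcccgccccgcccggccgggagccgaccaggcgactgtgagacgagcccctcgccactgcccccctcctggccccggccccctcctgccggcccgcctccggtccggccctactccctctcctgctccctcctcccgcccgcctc
The Nodal window held none of the 3 motifs in these letters, and the Chrd window held 1 TTTATG on the minus strand, starting at base -222. Over 32851 such windows of all genes, 0.718% held AATCCACA, 10.8% TTTATG and 5.42% GTGGGAA. The windows also differed in base composition, with 53.2% G and C for Nodal and 78.0% for Chrd against a median of 52.4%. Windows of Foxa2 and Noto were also in the table, with none of these letters in them.

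Lefty2, a secreted antagonist and target of Nodal in the left lateral plate, had a probe on chromosome 1 (182734521 to 182734580). Its log2 ratios were 0.01, 0.21, 0.35 and 0.23 on arrays 1 to 4, so that array 1 stood near 0 while the others were positive. The mean of 0.20 ± 0.10 did not pass in the first fit (n = 2, limma adjusted p = 0.269), and its 95% interval ran from -0.0025 to 0.41. It passed in the exchange pairing (adjusted p = 0.00031). Lefty1, its neighbour and the form expressed in the midline, had a probe at 182774681 to 182774740 with signals of 114 to 124 units in Cdx4-low RNA and 123 to 134 units in Cdx4-high RNA. Local backgrounds were 69 to 86.5 units. The probe was well above background in Cdx4-low RNA on array 1 and in Cdx4-high RNA on arrays 3 and 4, in each case in Cy5. It was not tested, and no fold is given.

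Chrd, which encodes chordin, showed no shift larger than the spread between arrays. Its probe on chromosome 16 (20652519 to 20652691) had log2 ratios of -0.12, -0.0039, 0.057 and -0.11, on both sides of 0. The mean was -0.04 ± 0.10 (n = 2, limma adjusted p = 0.886), with a 95% interval of -0.25 to 0.16. Nog, which encodes noggin, had a probe on chromosome 11 (89117625 to 89117684) with ratios of 0.15, 0.10, -0.03 and 0.03. Arrays 1 and 2 were positive and arrays 3 and 4 near 0, and the mean was 0.06 ± 0.10 (n = 2, limma adjusted p = 0.828, 95% interval -0.14 to 0.27). The interval of Nog includes the 0.20 measured for Lefty2.

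Foxa2, a forkhead factor needed to form the node and notochord and expressed in floor plate and endoderm as well, was the member measured with most spots. Its probe (chromosome 2, 147734403 to 147734462) was printed 10 times on each array. The mean log2 ratios were 0.01, 0.10, 0.18 and 0.15 on arrays 1 to 4. Spots of 1 array varied with an SD of 0.054 to 0.074, and the SD between the 4 array means was 0.074. Averaging 10 spots thus did not bring the arrays together, and the mean of 0.11 ± 0.10 passed in neither fit (n = 2, limma adjusted p = 0.618, and adjusted p = 0.06 in the exchange pairing). Median centring gave Foxa2 a ratio of 0.52, against 0.28 over all genes, without a call (adjusted p = 0.757).

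**Figure D2:**
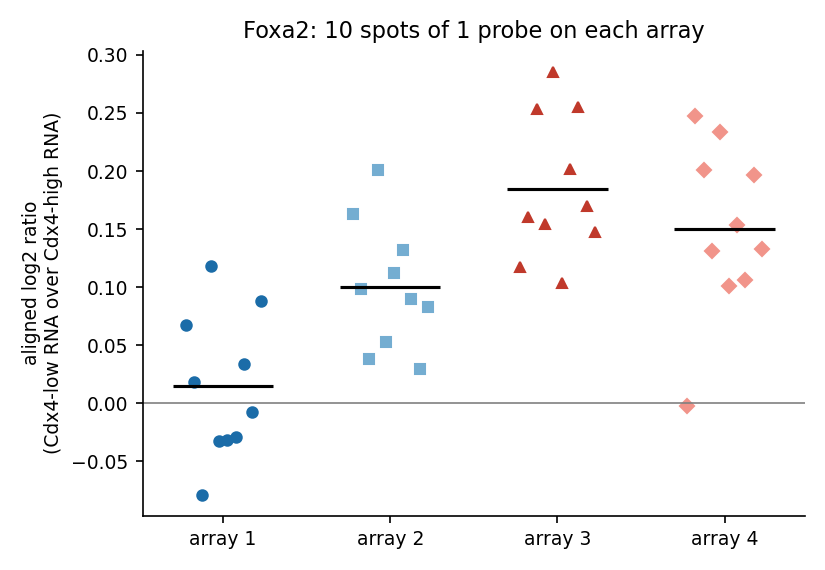
Aligned log2 ratio (vertical axis, Cdx4-low RNA over Cdx4-high RNA) of the 10 Foxa2 spots on each of the 4 arrays, with the array mean as a bar. Spots of array 1 scatter around 0, with a mean of 0.01, and those of array 3 lie higher, with a mean of 0.18.

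Markers of other Foxa2-expressing tissues were read beside it. All 12 visceral endoderm markers, genes of the epithelium outside the embryo, were well above background in 1 RNA or both and were tested. All 12 fell in Cdx4-low RNA, against 4.44% of all genes called lower in the first fit. Their median log2 ratio was -0.74 over the probes used, with a range of -1.50 to -0.25 under median centring. The other probe of Hnf4a was at -0.03, against -0.33 for the probe used. Their summed normalised signal was 35011 to 44652 units in Cdx4-low RNA over the arrays, against 75156 to 105571 units in Cdx4-high RNA. Of 6 gut endoderm markers, Trh rose (0.32 ± 0.10, n = 2, limma adjusted p = 0.0468) and Hhex fell (-0.56 ± 0.11, adjusted p = 0.00108, with its other probe at -0.11). Under median centring they were at 0.59 and -0.29. The summed signal of these 6 was 4728 to 6804 units in Cdx4-low RNA and 4869 to 6565 units in Cdx4-high RNA. The call of Trh ended without any 1 array and with the processed signals (adjusted p = 0.0876), that of Hhex without array 1, and those of Apoa4, Ttr and Hnf4a, of the visceral endoderm list, without 1 or more single arrays. The part of either tissue in the Foxa2 ratio was not tested.

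Car3 encodes a carbonic anhydrase expressed in the early notochord, and it had the highest ratio among the 6 tested members. Its probe on chromosome 3 (14848525 to 14848584) gave 512, 554, 337 and 316.5 units in Cdx4-low RNA on arrays 1 to 4, against 275, 293, 394 and 358 units in Cdx4-high RNA. As for Nodal, Cy5 was the brighter channel on every array. The log2 ratios were 0.51, 0.31, 0.36 and 0.35, and the mean of 0.38 ± 0.10 passed in both fits (n = 2, limma adjusted p = 0.0138, and adjusted p = 9.8e-13 in the exchange pairing). Without array 1, where the ratio was highest, it was 0.33 and the call ended (adjusted p = 0.143). From the processed signals it was 0.61 (adjusted p = 0.0123). The other Car3 probe, at 14841475 to 14841534, was not well above background in either channel of any array.

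Foxj1, the regulator of motile cilia, could not be measured. Its probe on chromosome 11 (116146990 to 116147049) read 119 to 123 units in Cdx4-low RNA and 108 to 122 units in Cdx4-high RNA. It was well above background only in Cdx4-low RNA on array 1, and no fold is given.

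**Figure D3:**
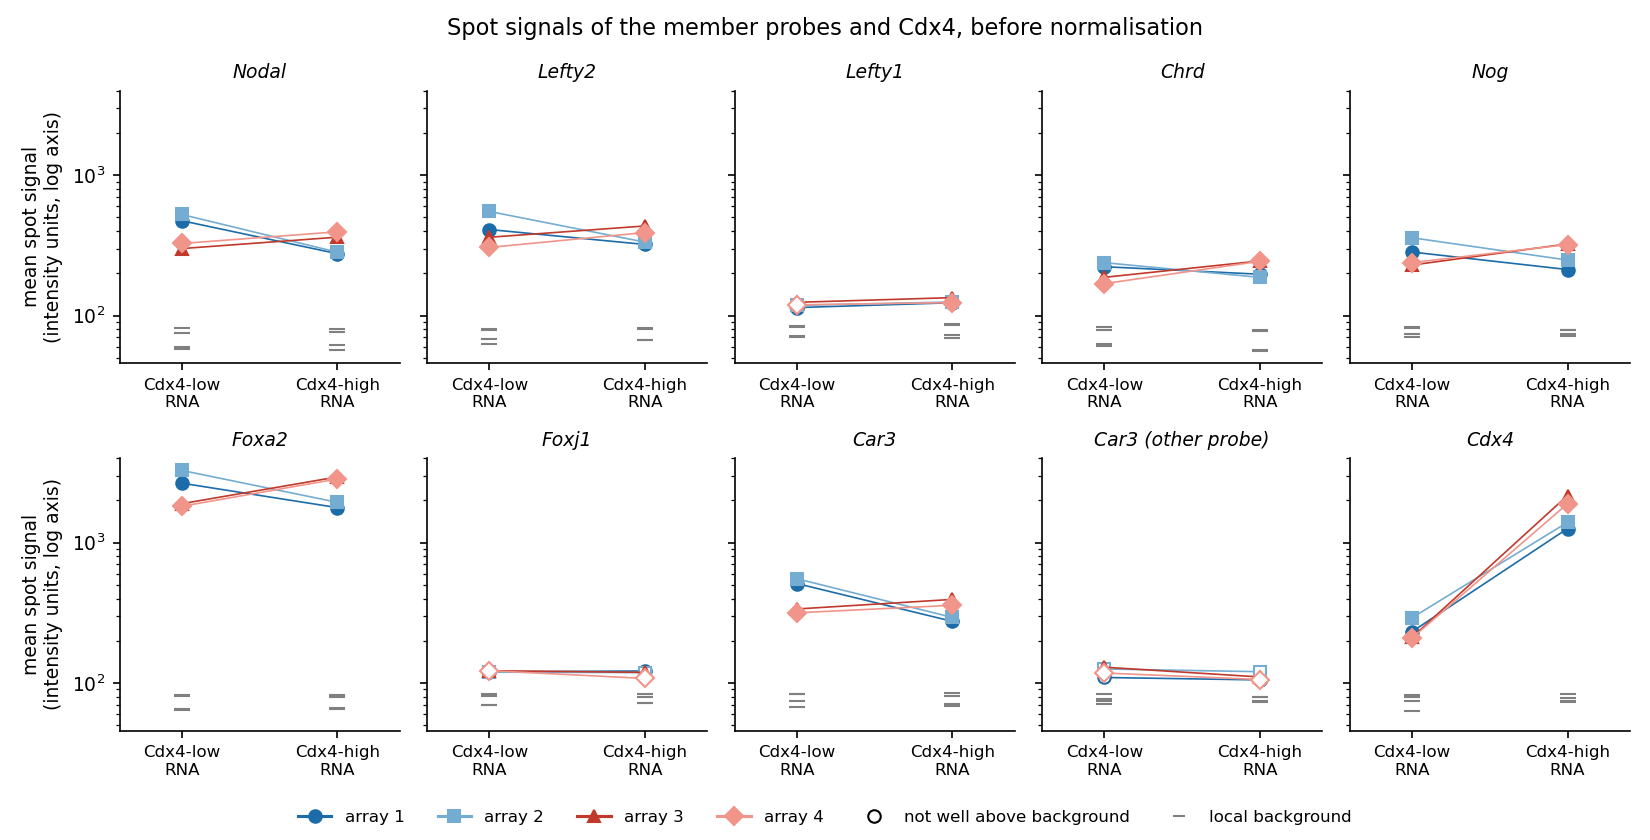
Mean spot signal before normalisation (vertical log axis, intensity units) in Cdx4-low RNA and Cdx4-high RNA for each member probe and Cdx4, with lines joining the 2 channels of each array, open symbols for signals not well above background and grey dashes for local background. Lefty1, Foxj1 and the other Car3 probe sit just above background, and for Nodal and Car3 the lines of arrays 1 and 2 slope opposite to those of arrays 3 and 4 because Cy5 is the brighter dye.

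Of 20 listed genes of the wider Nodal pathway 16 were tested (median 0.038), and 0 rose and 0 fell in both fits. Of all genes, 3.29% were called higher and 4.44% lower in the first fit. At an unadjusted p below 0.05 in limma, 3 of the 16 were higher and 0 lower. In the exchange pairing 3 were called higher and 1 lower, where 22.6% and 19.6% of all genes were called. The Nodal cofactor gene Cfc1 (0.27), the signal transducer gene Smad3 (0.30) and Drap1 (0.29), whose product restrains Foxh1, were the 3 higher genes, called in the exchange pairing only. The pro-protein convertase gene Pcsk6 was the 1 lower gene there, at -0.14. Dand5, the Nodal antagonist of the node margin, was at 0.05 (limma adjusted p = 0.875). Tdgf1, Gdf3, Cer1 and Acvr1c were too dim to test. Nodal and Lefty2 are also expressed in lateral plate, of whose 4 markers (Foxf1, Hand1, Hand2 and Tbx4) none was called in the first fit, with ratios of -0.30 to 0.24 (Hand1 higher and Tbx4 lower in the exchange pairing). Their summed signal was 1993 to 3361 units in Cdx4-low RNA, against 1915 to 2819 units in Cdx4-high RNA.

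Among genes of the BMP pathway, whose ligands chordin and noggin bind, 21 of 25 were tested (median -0.042), and 0 rose and 1 fell in both fits. Of all genes, 3.29% were called higher and 4.44% lower in the first fit, and 1 lower of 21 was near that share. At an unadjusted p below 0.05 in limma, 1 of the 21 was higher and 5 lower. In the exchange pairing 5 were called higher and 7 lower, with the 1 that fell in both fits among the 7, where 22.6% and 19.6% of all genes were called. Bmpr2, a BMP receptor, fell by 0.44 on the log2 scale (SE 0.10, n = 2, limma adjusted p = 0.00579), with its other probes at -0.23 and -0.25. Without array 1 that call ended (adjusted p = 0.0903), and under median centring the ratio was -0.07. Bmp2 (-0.26), Smad6 (-0.26) and Id3 (0.30), a BMP target, were called only in the exchange pairing, and Bmp4 was at -0.04 in neither.

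Genes of notochord and floor plate were tested for 12 of 13 (median 0.040). Of the 12 tested, 2 rose and 0 fell in both fits, against 3.29% and 4.44% of all genes in the first fit. In the exchange pairing 5 were called higher, with these 2 among them, and 0 lower, beside 22.6% and 19.6% of all genes. Col2a1, the type II collagen gene of the notochord sheath, rose by 0.86 ± 0.11 (n = 2, limma adjusted p = 2.8e-06), with its other probe at 0.87. The same gene is expressed in forming somite derivatives, and of 3 tested somite markers Meox1 (0.91, other probe 0.52) and Tcf15 (0.85) rose and Uncx was at -0.04. The part of somite tissue in the Col2a1 ratio was not tested. Krt18, a keratin of simple epithelia, rose by 0.36 ± 0.10 (adjusted p = 0.0308), while its usual partner Krt8 was at 0.04. The call of Krt18 ended without array 1, 2 or 3 (adjusted p = 0.116 to 0.215) and with the processed signals (adjusted p = 0.0751), and under median centring its ratio was 1.01. The defining midline genes T (0.15), Shh (0.16) and Foxa1 (0.0081) did not pass in the first fit, and T and Shh were called in the exchange pairing.

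Of 29 genes of node cilia, 19 were tested (median 0.043). Of the 19 tested, 2 rose and 0 fell in both fits, against 3.29% and 4.44% of all genes in the first fit. In the exchange pairing 9 were called higher, with these 2 among them, against 22.6% of all genes, and 2 lower, against 19.6%. Bicc1, an RNA-binding protein gene needed for node cilia alignment, rose by 0.63 ± 0.10 (n = 2, limma adjusted p = 0.000153), with its other probes at 0.29 and 0.33. Rsph9, a radial spoke gene, rose by 0.48 ± 0.10 (adjusted p = 0.00231). Both calls held with any 1 array left out, and Bicc1 was at 1.02 under median centring and Rsph9 at 0.81 from the processed signals. Rfx3 (-0.21), a ciliary transcription factor gene, and Pkd2 (-0.18), which encodes the calcium channel that senses node flow, were the 2 lower genes of the exchange pairing. Both were negative on arrays 3 and 4, and on arrays 1 and 2 Pkd2 was positive and Rfx3 between -0.03 and 0.12. The other probe of Pkd2 was at -0.33.

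**Figure D4:**
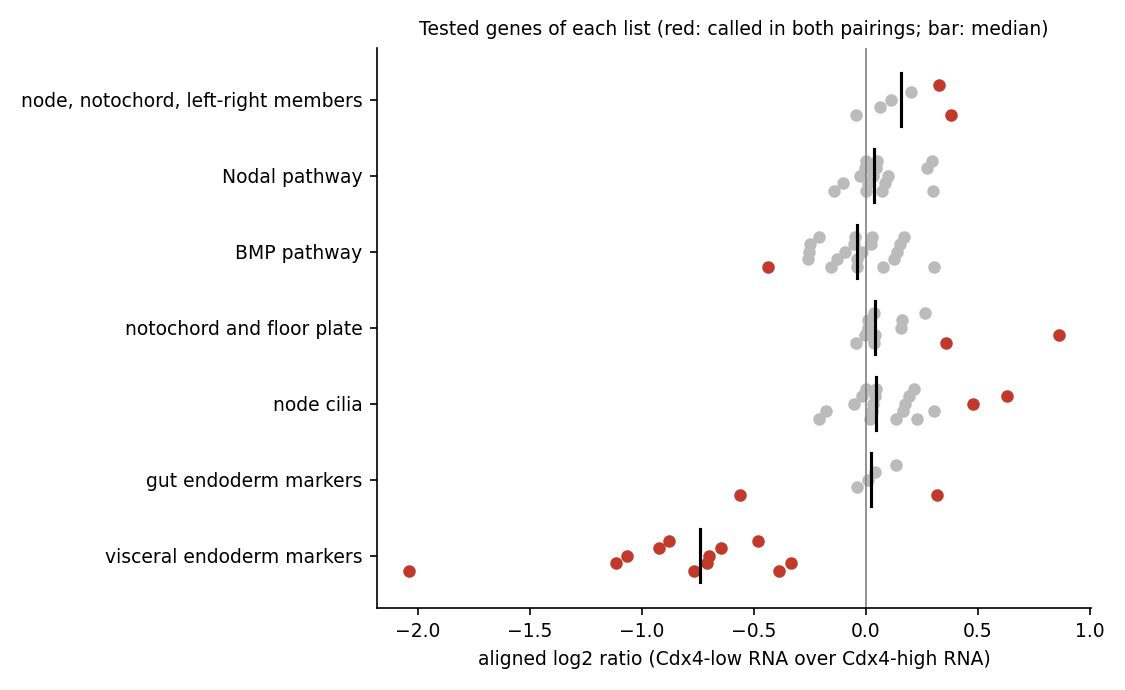
Aligned log2 ratio (horizontal axis, Cdx4-low RNA over Cdx4-high RNA) of every tested gene in each list, with red for genes called in both pairings and a bar at the list median. The 6 members and the 4 related lists have medians between -0.042 and 0.16, and the visceral endoderm markers lie wholly below 0.

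The 3 tested genes whose ratios lay nearest to those of Nodal over the 4 arrays were Ap3b2, Larp6 and Scx, with root mean square distances of 0.030, 0.032 and 0.035 on the log2 scale. As labelled, the log2 ratios of Nodal were 0.38, -0.26, -0.33 and 0.33 on arrays 1 to 4 and their replicate means 0.06 and -0.0026. Those of Car3 were 0.51, -0.31, -0.36 and 0.35, with replicate means of 0.10 and -0.0031. Both therefore cancelled in the fit as labelled, at 0.03 for Nodal and 0.05 for Car3 (limma adjusted p = 1 for both).

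**Figure D5:**
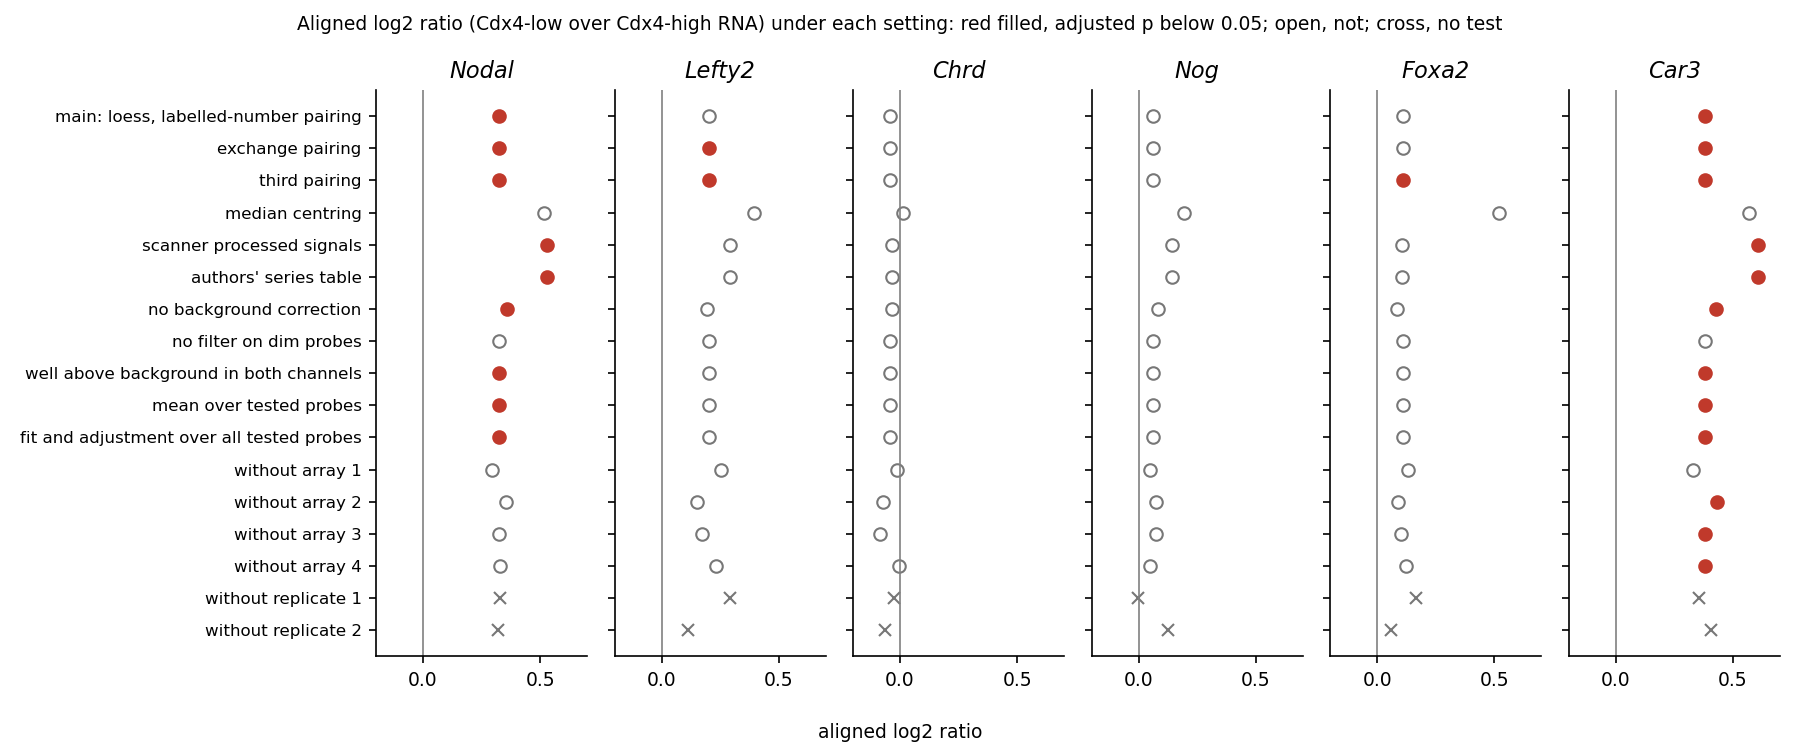
Aligned log2 ratio (horizontal axes, Cdx4-low RNA over Cdx4-high RNA) of each tested member under every processing setting (rows), with filled red points for an adjusted p below 0.05, open points for one above it and crosses where no test was possible. Nodal and Car3 stay above 0 in all rows, from 0.30 to 0.53 and from 0.33 to 0.61, and Chrd stays within 0.09 of 0.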

How the data were processed

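Gene expression was measured on 4 arrays of 2 colours. Per the submitters' processing notes, Agilent Feature Extraction 9.5.3 made the scanner files. Per the file headers they hold the intensity of each spot and its local background, background-subtracted and dye-normalised intensities, and a log10 ratio of Cy5 over Cy3, with probe positions on mm8. The authors' deposited series table holds that log10 ratio, turned on the labelled dye swaps (equal within 1e-05 for 100% of features).

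In limma 3.58.1 under R 4.3.3, mean intensities went through normexp background correction (offset 50) and then loess within each array, where control spots had weight 0. Saturated spots (0 to 7 per channel) were kept, unlike outlier spots (103 to 167 per array). A probe was tested where 1 RNA or both lay well above background on every array, between 50.6% and 64.9% of spots being so in a channel. The brightest probe stood for a gene. Arrays 1 and 2 were averaged as replicate 1 and arrays 3 and 4 as replicate 2, and eBayes was run on the lmFit result, with p-values adjusted by Benjamini-Hochberg across 14842 genes. With 25.8 prior degrees of freedom beside 1 residual, the printed SE is largely pooled over genes, and array number limits precision. In the exchange pairing the SE was the same for every gene (0.051). Its small p-values therefore do not reflect the scatter of the gene itself. If the labelled replicate numbers are right, dye bias stays in that spread and the exchange pairing leaves out the spread between replicates. The fit was also run on simulated ratios with 1 SD for all genes and no dye or replicate effect. That run does not show how the fit behaves on these arrays. Of 41174 probes, the RefSeq table of GRCm38.p6 named 23374 by accession, 6733 by a current and 2919 by an older symbol, and 8148 kept the file's name. No mm8 annotation of exons was used here.

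The members, the alignment of the arrays by Cdx4 and the gene lists were chosen with earlier results of these data known. All members were named, with the called genes of the pathway, notochord and cilia lists and the 3 genes nearest to Nodal. Of the marker lists, only some of the called genes were named. Other genes of the lists were named for their role after their values were seen. A gene of the Nodal pathway list is not reported here, and the counts and median of that list leave it out.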

Additional observations from a re-analysis of the deposited data

How the results depend on the processing

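With all arrays aligned, 488 genes were called higher and 659 lower, and 2 members higher and 0 lower. The pairing of arrays raised the gene counts, to 3349 and 2903 genes in the exchange pairing and to 4466 and 3754 when arrays 1 and 4 and arrays 2 and 3 were paired, where 4 members were called (Lefty2 and Foxa2 with Nodal and Car3). With median centring in place of loess 6 genes were called higher and 2 lower and 0 members (median over all genes 0.28), and Chrd turned to 0.014 (adjusted p = 1). With no filter on dim probes the counts were 10, 4 and 0. The processed signals and the authors' series table each called 1057 genes lower. With 1 array left out in turn, 138 to 381 genes were called higher, 115 to 556 lower, and 0 to 1 members, the 1 being Car3. The lowest counts came without array 1 (138, 115 and 0), and those without array 2 (226 and 405) and array 3 (272 and 306) were also well below the full counts. The cause of these shifts was not tested. As labelled, 15 genes were called, or 74 with replicate 2 turned. Over 16 alternatives each, of which 14 gave a test, Nodal stayed positive in 16 and was called in 8, and Car3 stayed positive in 16 and was called in 11. These alternatives are not all distinct, since the processed signals and the authors' series table hold the same ratios. The other pairings of arrays keep the mean ratio and, for Nodal and Car3, have a smaller SE than the first fit. Foxa2 was called in 1 and Lefty2 in 2, and Chrd and Nog in 0. Nog ran from -0.0014 without replicate 1 to 0.19. The alternative that fits all tested probes together was added after the data were seen (adjusted p = 0.0486 for Nodal and 0.0203 for Car3). Both RNAs share each array, so every ratio is already a pair, and the fits used that pairing by testing the ratios against 0. Signals near background limit Lefty1 and Foxj1.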
